A study of Mus musculus with 2 samples.

Results

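The cathepsins, cystatins and stefins were described here as 1 set of genes, chosen by symbol alone: Cts followed by letters or digits, Cst followed by digits, Csta or Cstb, and symbols starting with Stfa. The rule matched 37 of the 24421 genes counted, 23 cathepsins and 14 cystatins or stefins, and no gene was listed under the symbol Csta. The series measured RNA of whole-layer skin from the back of wild type C57BL6/J mice. A device glued to the back stretched the skin at an initial strain of 33% that was raised daily, and skin was taken at day 5 as 1 stretched library and 1 non-stretched library (without strain), here called control. The methods place the mice, adult females, in the resting phase of the hair cycle, and the skin attached to the device was discarded. The study asked how stretch starts hair regeneration, and the counts compare both skins at day 5. The labels do not say how many mice each library holds.

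Cathepsins are proteases of the endosome and lysosome. Most are cysteine proteases related to papain (Ctsb, Ctsc, Ctsf, Ctsh, Ctsk, Ctsl, Ctso, Ctss, Ctsw and Ctsz), while Ctsd and Ctse are aspartic proteases and Ctsa and Ctsg are serine-type enzymes. They are made as inactive proforms, sorted to the lysosome largely by mannose 6-phosphate, and activated at low pH, and some are secreted and cut matrix proteins. Cystatins and stefins are small proteins that block the active site of the cysteine cathepsins, the stefins inside the cell and most cystatins outside it. In skin, cathepsins take part in antigen presentation, collagen turnover and the cornification of keratinocytes, and the loss of cathepsin L or of cystatin M/E disturbs hair and epidermis in mice.

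The counts summed to 14152379 in the control library and 11648655 in the stretched library, with 17571 and 17434 genes above 0. A count of 3, used as the floor, corresponded to 0.212 CPM (counts scaled to the library total) in the control and 0.258 CPM in the stretched library. Keratinocyte, fibroblast, skeletal muscle and adipocyte markers were counted in both libraries. The summed level of 12 skeletal muscle markers went from 30253 to 22682 CPM (9 of 12 intervals below 0, while Myh1, Myh2 and Mb were called higher), with Myh4 alone going from 6432 to 271 CPM, and that of 8 adipocyte markers from 1685 to 1115 CPM (8 of 8 below 0, from -0.84 for Plin1 to -0.35 for Pnpla2 on the log2 scale). With 1 library per condition there was no replicate check, and no difference carries a p-value. The 95% intervals given with the ratios are exact Clopper-Pearson intervals that cover counting error only and compare these libraries. In bulk tissue, more cells of a type and more RNA per cell cannot be told apart.

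Of the 37 members, 22 exceeded 3 counts in 1 or both libraries and are called measured. The other 15 were at 0 in both libraries. They were the placental cathepsins Cts3, Cts6, Cts7, Cts8, Ctsj, Ctsll3, Ctsm, Ctsq and Ctsr, and Cst8, Cst9, Cst10, Cst11, Cst12 and Cst13, cystatins known mostly from restricted tissues such as the reproductive tract. A count of 0 allows up to 0.212 CPM in the control and 0.258 CPM in the stretched library. The skin thus had counts for the general lysosomal enzymes, their widely expressed inhibitors and some immune members, and none for the tissue-restricted branches.

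Stretched skin had more Ctss and Ctsk and less Ctse. These were the 3 members past the thresholds of the study, a product of both FPKM values (EV, with 1 added to each) above 10 with a fold of 2 or more, or of 0.5 or less, and 17 members passed the EV filter. Among all 10911 genes past that filter, 2.61% were called higher and 2.44% lower in the stretched library, against 2 and 1 of the 17 members. By the looser reading of counting error, the interval of the ratio lay above 0 on the log2 scale for 15 of the 22 measured members and below 0 for 1, and it included 0 for 6. Stfa2l1, 1 of the 15, was measured only through its counts in the stretched library. Over all 16255 measured genes the interval lay above 0 for 18.1% and below 0 for 33.5%, a split of 2945 to 5452 genes that became 3924 to 3914 when the libraries were scaled by TMM factors. The median log2 ratio was 0.43 over the measured members, 20 of which were higher in the stretched library, and -0.12 over all measured genes.

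**Figure D1:**
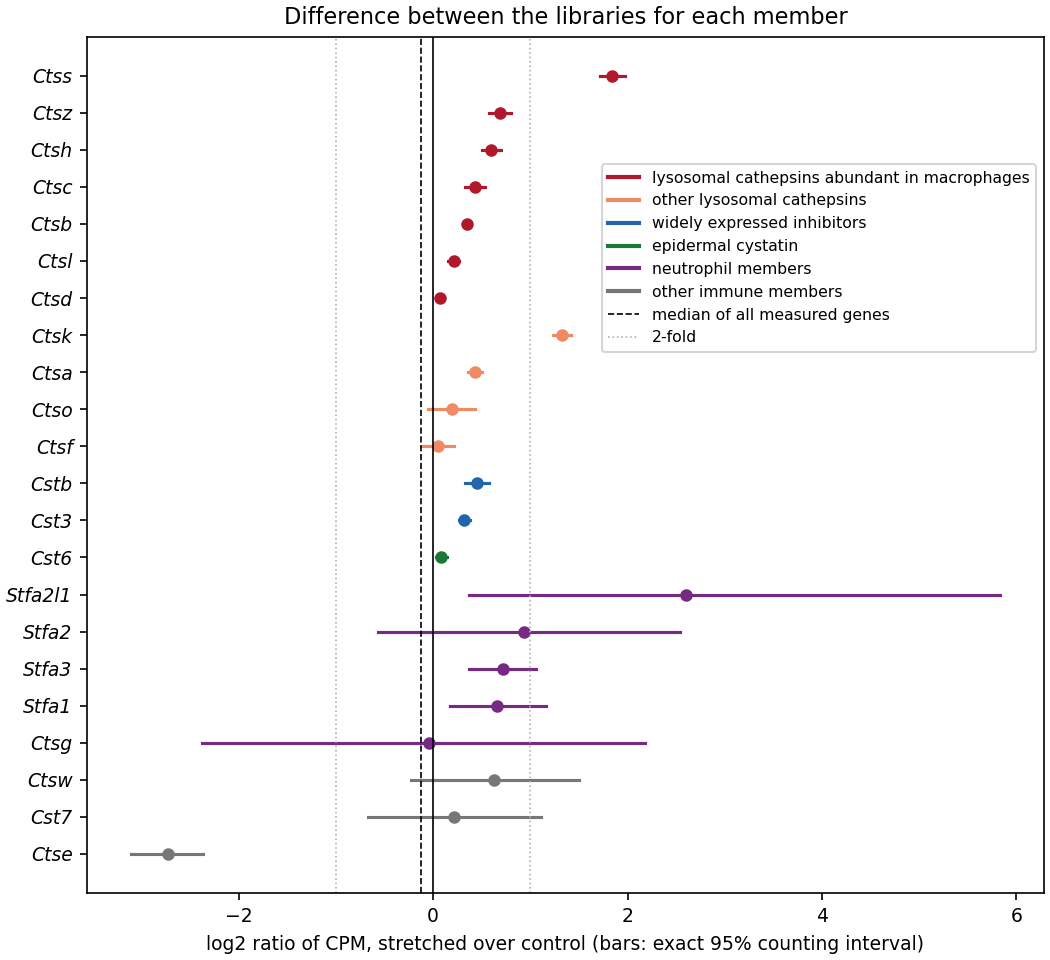
Log2 ratio of CPM in the stretched over the control library for the 22 measured members, in order of member group. Points are ratios, bars are exact 95% counting intervals, the dashed line marks the median of all measured genes (-0.12) and dotted lines mark a 2-fold difference. Ctss and Ctsk lie to the right of the 2-fold line and Ctse to its left, and Stfa2l1 is drawn from 2 control counts.

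Of the lysosomal cathepsins that macrophages carry in abundance, Ctss differed most. Ctss encodes cathepsin S, a cysteine protease of antigen-presenting cells that trims the invariant chain of MHC class II and stays active at neutral pH. It had 680 counts in the control and 2010 in the stretched library. Its ratio was 3.59-fold, with an interval of 3.29 to 3.92 (log2 1.84). Its level per exon length went from 35.4 to 127 FPKM, and its rank among the members by FPKM from 10 to 6. Ctsk encodes cathepsin K, the collagen-cutting protease best known from osteoclasts and also made by activated fibroblasts and macrophages. It had 1542 counts in the control and 3181 in the stretched library. Its ratio was 2.51-fold, with an interval of 2.36 to 2.67 (log2 1.33), and its level went from 72.1 to 181 FPKM. Neither gene shared a 76-base stretch, the length of a read, with any other annotated transcript.

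Ctsk and Ctss are neighbours on mouse chromosome 3. In GENCODE M21 (mm10), Ctsk runs from 95499256 to 95509362 and Ctss from 95526786 to 95556403, both on the plus strand with 17423 bases between them. Their neighbours did not share the difference. Arnt, just upstream of Ctsk, had 1306 control and 956 stretched counts, a log2 ratio of -0.17 with an interval of -0.29 to -0.05. Hormad1, just downstream of Ctss, was at 0 in both libraries, and Golph3l beyond it had 323 counts in each (log2 ratio 0.28, interval 0.05 to 0.51). None of the measured neighbours passed the 2-fold thresholds. These neighbours were looked up after the values of Ctsk and Ctss were known.

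The promoters of this pair are shown because both genes were higher in the stretched library, and that of Ctsd because it carries a lysosomal motif and belongs to the member with the highest FPKM. RefSeq promoters (GRCm38.p6, 250 bases before to 50 after a start site) were matched for 30 of the 37 members and for 9 of the 11 lysosomal cathepsins. They were searched on both strands for CACGTG (an E-box), for TCACGTGA (the palindromic core of the lysosomal CLEAR element, which contains CACGTG), for GAGGAAGT (the site of the macrophage and B cell factor PU.1) and for TGANTCA (an AP-1 site). Capitals mark matches to CACGTG, GAGGAAGT or TGANTCA, and each sequence is written 5′ to 3′ on the gene's strand. Ctss lies at chr3:95526536-95526835 on the plus strand, Ctsk at chr3:95498960-95499259 on the plus strand and Ctsd at chr7:142387778-142388077 on the minus strand.
Ctss: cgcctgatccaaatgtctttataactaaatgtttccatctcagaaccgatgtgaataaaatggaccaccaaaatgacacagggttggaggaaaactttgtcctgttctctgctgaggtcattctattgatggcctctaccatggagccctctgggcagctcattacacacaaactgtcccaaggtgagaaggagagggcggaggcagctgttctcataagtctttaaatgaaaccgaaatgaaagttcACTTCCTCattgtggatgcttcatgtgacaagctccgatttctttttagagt
Ctsk: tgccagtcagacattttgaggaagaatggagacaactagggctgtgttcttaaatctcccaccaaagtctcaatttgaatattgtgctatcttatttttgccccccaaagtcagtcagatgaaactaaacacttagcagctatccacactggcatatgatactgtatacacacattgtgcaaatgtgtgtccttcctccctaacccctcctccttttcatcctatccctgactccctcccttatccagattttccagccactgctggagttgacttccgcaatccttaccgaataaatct
Ctsd: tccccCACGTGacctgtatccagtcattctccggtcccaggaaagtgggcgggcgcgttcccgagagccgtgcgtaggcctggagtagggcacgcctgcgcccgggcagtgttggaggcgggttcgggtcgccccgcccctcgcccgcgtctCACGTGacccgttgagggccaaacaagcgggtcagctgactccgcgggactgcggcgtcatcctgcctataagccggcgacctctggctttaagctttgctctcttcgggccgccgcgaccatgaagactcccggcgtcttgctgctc

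The Ctss promoter held GAGGAAGT on the reverse strand, read here as ACTTCCTC, with its first base at position -2, the start site being 0. The Ctsk promoter held none of the 4 motifs. The Ctsd promoter held CACGTG at -245 and at -98, the latter within TCACGTGA. GAGGAAGT was found in 3.11% of 32544 distinct promoters and in those of Ctss, Ctsc and Cts6. CACGTG was found in 7.17% of promoters and in those of Ctsa, Ctsd, Ctsf, Ctsl and Ctsll3, and TCACGTGA in 0.983% and in those of Ctsa and Ctsd. TGANTCA was found in 7.79% of promoters, in those of Cst7, Cst10 and Stfa3, and in none of the 9 lysosomal cathepsins. The lysosomal cathepsins with the E-box had log2 ratios of 0.43 (Ctsa), 0.07 (Ctsd), 0.05 (Ctsf) and 0.21 (Ctsl). A match describes the letters and not the binding of a factor.

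The other 6 macrophage-rich lysosomal cathepsins were higher in the stretched library by less than 2-fold. Ctsz, the carboxypeptidase cathepsin X, had 1149 control and 1522 stretched counts and a log2 ratio of 0.69 (interval 0.58 to 0.80). Ctsh, an aminopeptidase, had 1598 and 1991 counts and a log2 ratio of 0.60 (interval 0.50 to 0.69). Ctsc, the dipeptidyl peptidase that activates the serine proteases of neutrophil and mast cell granules, had 1469 and 1635 counts and a log2 ratio of 0.44 (interval 0.33 to 0.54). All 3 of these enzymes trim the ends of proteins, and their intervals lay clear of an equal level. Ctsb, an abundant endopeptidase and dipeptidase, had 12923 and 13510 counts and a log2 ratio of 0.34 (interval 0.31 to 0.38). Ctsl, which acts in hair follicle and epidermal turnover, had 5318 and 5067 counts and a log2 ratio of 0.21 (interval 0.16 to 0.27). Ctsd, the aspartic protease that degrades bulk lysosomal protein, had 11662 and 10093 counts and a log2 ratio of 0.07 (interval 0.03 to 0.11), or 0.18 with TMM and with median of ratios and 0.17 with upper quartile scaling. The 3 genes of the group with the highest control FPKM, Ctsd, Ctsb and Ctsl, thus had the 3 smallest differences. Over the 7 genes the median was 0.44, the interval lay above 0 for 7, and the summed level went from 2459 to 3076 CPM.

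Among the other lysosomal cathepsins, Ctsk stood apart from the rest. Ctsa, the carboxypeptidase also called protective protein because it stabilises other lysosomal enzymes, had 2775 control and 3085 stretched counts and a log2 ratio of 0.43 (interval 0.36 to 0.51). Ctso and Ctsf, widely expressed cysteine cathepsins, had 298 and 280, and 599 and 509 counts. Their log2 ratios of 0.19 (interval -0.05 to 0.43) and 0.05 (interval -0.13 to 0.22) were within counting error of no difference. That of Ctso depended on the scaling: with TMM it was 0.29, with median of ratios 0.30, and its interval lay above 0 under these and both other scalings. The median of the 4 genes was 0.31, and all 11 lysosomal cathepsins together had a median of 0.43.

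Most macrophage markers were also higher in the stretched library. Of 14 markers, 12 had an interval above 0 and 9 were called higher, from Cx3cr1 (19 control and 90 stretched counts, log2 ratio 2.52) down to Mertk (321 and 243 counts, log2 ratio -0.12). Their median was 1.32 and their summed level went from 1095 to 2423 CPM, and none of the markers was at 0 in either library. Ctss (1.84) lay above that median, Ctsk (1.33) near it and the other lysosomal cathepsins below it. All 10 fibroblast markers also had intervals above 0, with a median of 0.55 and a summed level that went from 42321 to 78913 CPM. By log2 ratio they ran from Dcn (0.06) to Col1a1 (168121 and 277385 counts, the 1 called higher). The part of either cell type in the cathepsin differences was not tested.

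**Figure D2:**
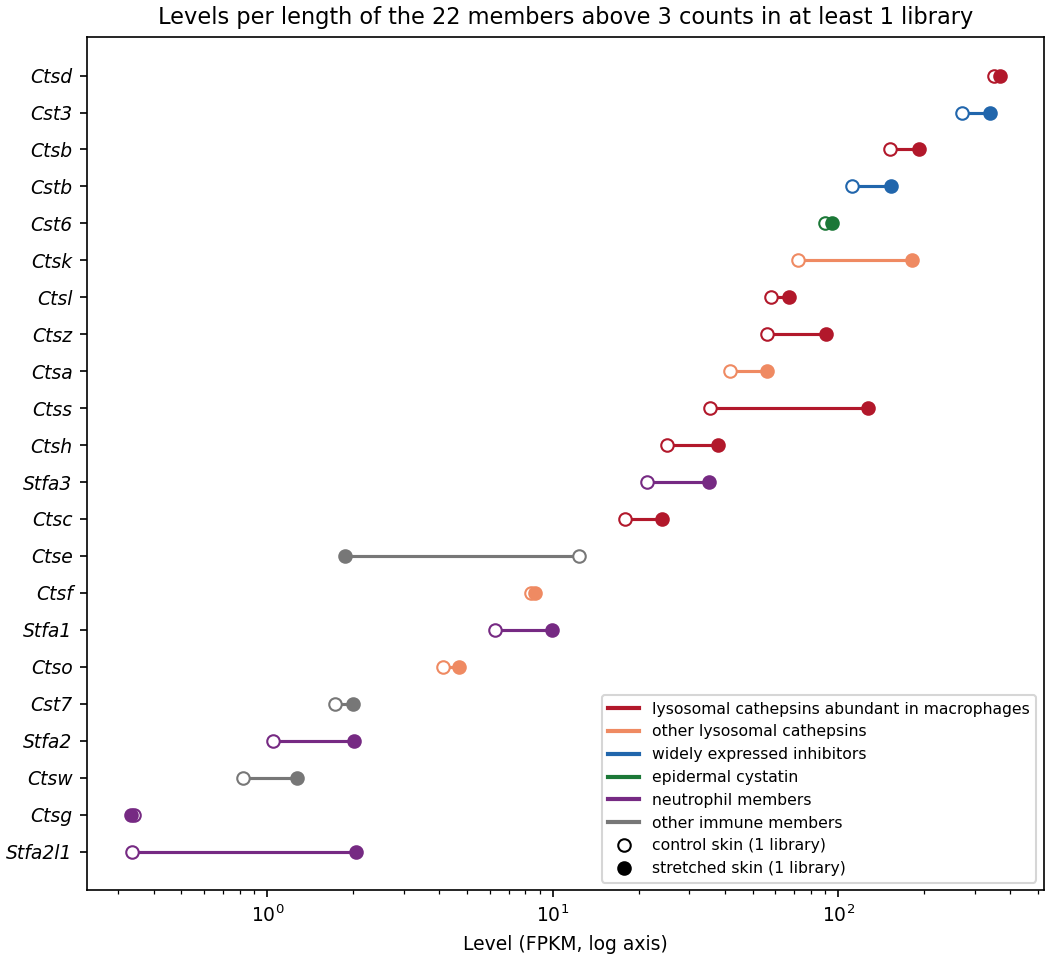
Level of each measured member in FPKM on a log axis, with an open point for the control and a filled point for the stretched library, coloured by member group. Ctsd is highest in both, at 351 and 369 FPKM, and the gap between the points is widest for Ctse, Ctss, Ctsk and the sparsely counted Stfa2l1.

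The genes with which cathepsins work differed in both directions within their lists. Of 40 other lysosomal genes, 25 had an interval above 0 and 6 below, with a median of 0.26. They ranged from Ctns, the lysosomal cystine carrier (626 control and 361 stretched counts, log2 ratio -0.51), to Galns, a sulfatase of keratan sulfate (112 and 208 counts, log2 ratio 1.17). Galns was not called, and the 1 gene of these called higher was Grn (2572 and 4457 counts, log2 ratio 1.07). Of 17 genes of cathepsin processing, sorting and transcription, 6 had an interval above 0 and 6 below, with a median of 0.05. Lgmn encodes legumain, the asparaginyl protease that matures several cathepsins. It was the 1 gene of the list called higher, with 1504 control and 2951 stretched counts and a log2 ratio of 1.25 (interval 1.16 to 1.34). At the other end stood Sort1, a sorting receptor that carries proteins to the lysosome, with 2162 and 1114 counts and a log2 ratio of -0.68 (interval -0.78 to -0.57). Lgmn, the highest gene of its list, had a log2 ratio near that of Ctsk (1.33).

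The widely expressed inhibitors were modestly higher. Cst3 encodes cystatin C, the main secreted cystatin of most tissues. It had 4865 control and 5000 stretched counts and a log2 ratio of 0.32 (interval 0.26 to 0.38). Cstb encodes stefin B, an inhibitor inside the cell. It had 950 and 1069 counts and a log2 ratio of 0.45 (interval 0.32 to 0.58). Both differences were close to those of Ctsb and Ctsc and well below those of Ctss and Ctsk.

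Cst6, the epidermal member, was higher by less than the widely expressed inhibitors. It encodes cystatin M/E, a secreted inhibitor of legumain and cathepsin L that controls the crosslinking of the cornified envelope. It had 5199 control and 4539 stretched counts, which is 367 and 390 CPM and a log2 ratio of 0.09 (interval 0.03 to 0.14). With TMM the ratio was 0.19, with median of ratios 0.20 and with upper quartile scaling 0.19. Its targets Lgmn and Ctsl had log2 ratios of 1.25 and 0.21, while Tgm3, the transglutaminase downstream of cathepsin L in the same pathway, was lower, with 518 and 144 counts and a log2 ratio of -1.57. Tgm1, another transglutaminase of the cornified envelope, had 1871 and 1109 counts and a log2 ratio of -0.47, and was not called. Per exon length, Cst6 stood at 89.8 FPKM against 45.7 for Lgmn in the control and at 95.3 against 109 in the stretched library. By FPKM, Cst6 thus stood above Lgmn in the control and below it in the stretched library. This order rests on the exon length used, 4090 bases for Cst6. Not divided by length, Cst6 stood above Lgmn in both libraries (367 and 390 against 106 and 253 CPM). Ctsl, at 57.9 and 67.0 FPKM, lay below Cst6 in both. Of the 11 keratinocyte markers 5 had an interval above 0 and 5 below, and the sizes were unequal. Those above reached at most 0.28 (Krt14), while Krt15, Trp63, Ivl, Dsg1a and Dsc1 lay between -0.46 and -1.16, Dsc1 being called lower. Their summed level, carried mostly by Krt5, Krt10, Krt14 and Krt1, was 17451 and 17713 CPM.

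The 5 neutrophil members were counted sparsely, with a median log2 ratio of 0.72, 3 intervals above 0 and 2 that included it, Stfa2l1 entering at the floor of 3 control counts. Stfa1, Stfa2, Stfa2l1 and Stfa3 are stefin A genes of the mouse, inhibitors inside the cell known from neutrophils and from inflamed epithelium. Stfa3 had 125 control and 169 stretched counts and a log2 ratio of 0.72 (interval 0.37 to 1.06). Stfa1 had 63 and 82 counts and a log2 ratio of 0.66 (interval 0.17 to 1.16). Both were higher by more than counting error and by less than 2-fold. Stfa2 had 7 and 11 counts, for which a difference was not detectable at this depth (log2 ratio 0.93, interval -0.57 to 2.54). Stfa2l1 had 2 and 10 counts, a log2 ratio of 2.60 with an interval of 0.37 to 5.83, and its EV was below 10. With 1 CPM added to both values the log2 ratio was 0.70 for Stfa2l1 and 0.38 for Stfa2. Ctsg, the serine protease of neutrophil and mast cell granules, had 5 and 4 counts, and no difference was detectable (log2 ratio -0.04, interval -2.37 to 2.17). Of 9 mast cell markers 7 had an interval above 0 and 1 below, from Kit (-0.63) to Fcer1a (2.05, from 5 and 17 counts), and their summed level went from 270 to 386 CPM. The summed level of the 4 stefin A members went from 13.9 to 23.4 CPM.

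The stefin A members lie in 1 cluster on chromosome 16 (36119946 to 36455392 in mm10, GENCODE M21) with genes of the same kind under other symbols. Csta1, at the left end of the cluster, was lower in the stretched library, with 469 control and 297 stretched counts and a log2 ratio of -0.38 (interval -0.59 to -0.17). BC100530, between Stfa1 and Stfa2, had 135 and 198 counts and a log2 ratio of 0.83 (interval 0.51 to 1.16). Gm5483 had 1 and 11 counts. Ahsg, a cystatin relative of the liver encoded outside the cluster, had 5 and 2. Genes of 1 cluster thus differed in opposite directions. Copies in it resemble each other: 8.87% of the 76-base stretches of Stfa1 were found in BC100530, 5.56% of those of Stfa2 in Stfa2l1, and 25.1% of those of BC100530 in 3 other genes, so reads could have been split between them. No stretch of Stfa3 or Csta1 was shared.

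The best counted neutrophil markers were higher in the stretched library by more than Stfa1 and Stfa3. S100a8 had 57 control and 283 stretched counts and a log2 ratio of 2.59 (interval 2.18 to 3.03), and Csf3r 50 and 235 counts and 2.51 (interval 2.07 to 2.98). S100a9 had 69 and 187 counts and a smaller log2 ratio of 1.72 (interval 1.31 to 2.14). Of 12 markers 11 were in the table and 7 were measured, 1 of them, Retnlg (1 and 31 counts), only through the stretched library, and at the other end Camp had 6 and 3 counts. The summed level of the list went from 15.1 to 72.1 CPM. The granule genes Ltf, Elane, Mpo and Ngp had 3 counts or fewer in both libraries, Ngp 0 in both. Stfa1 and Stfa3 had log2 ratios of 0.66 and 0.72 beside these values, and the part of neutrophils in them was not tested.

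Ctse, Ctsw and Cst7 were listed together as other immune members, and the cell source of Ctse in this skin was not tested. Ctse was the 1 member called lower in the stretched library. It encodes cathepsin E, an aspartic protease of the endosome known from the stomach, immune cells and the epidermis. It had 555 control and 69 stretched counts. Its level was 39.2 and 5.92 CPM, a ratio of 0.151 with an interval of 0.116 to 0.194 (log2 -2.73), and its rank by FPKM among the members went from 14 to 20. It lies on chromosome 1 (131638306 to 131675505, plus strand) and shared no 76-base stretch with another gene. Its EV was 38.4, so that the call is lost with an EV limit of 100. Ctsw, made by cytotoxic T cells and natural killer cells, had 22 and 28 counts (log2 ratio 0.63, interval -0.23 to 1.5). Cst7, cystatin F of cytotoxic and myeloid cells, had 24 and 23 counts (log2 ratio 0.22, interval -0.67 to 1.11). Neither could be told from an equal level at this depth.

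The immune marker lists beside Ctse were sparsely counted. The summed level of the 8 dendritic and Langerhans cell markers went from 27.4 to 48.7 CPM. The intervals of Cd207, Cd209a, Itgax and Flt3 lay above 0, those of Xcr1, Clec9a and Zbtb46 included it, and Ccr7 (3 and 29 counts) was measured only through the stretched library. The T and NK cell markers went from 11.1 to 20.4 CPM in sum. The intervals of Cd4 and Klrd1 lay above 0, those of Cd3d, Cd3e, Cd3g, Nkg7 and Prf1 included it, and Gzma, Gzmb and Ncr1 were measured only through the stretched library. Hair keratins of the inner root sheath and hair shaft, a list added after the values were seen, were lower for 20 of 20 genes, with a median of -2.68, a range from -4.47 (Krt83) to -2.06 (Krt28) and a summed level that went from 10782 to 1873 CPM. Krt71 had the most counts of the list, at 4267 CPM in the control and 755 CPM in the stretched library. The control library thus carried abundant hair keratin RNA, although the methods place the mice in the resting phase of the hair cycle. The hair cycle stage of each library was not tested. Ctse lay within the range of log2 ratios of the hair keratins, and the part of hair follicle cells in it was not tested.

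**Figure D3:**
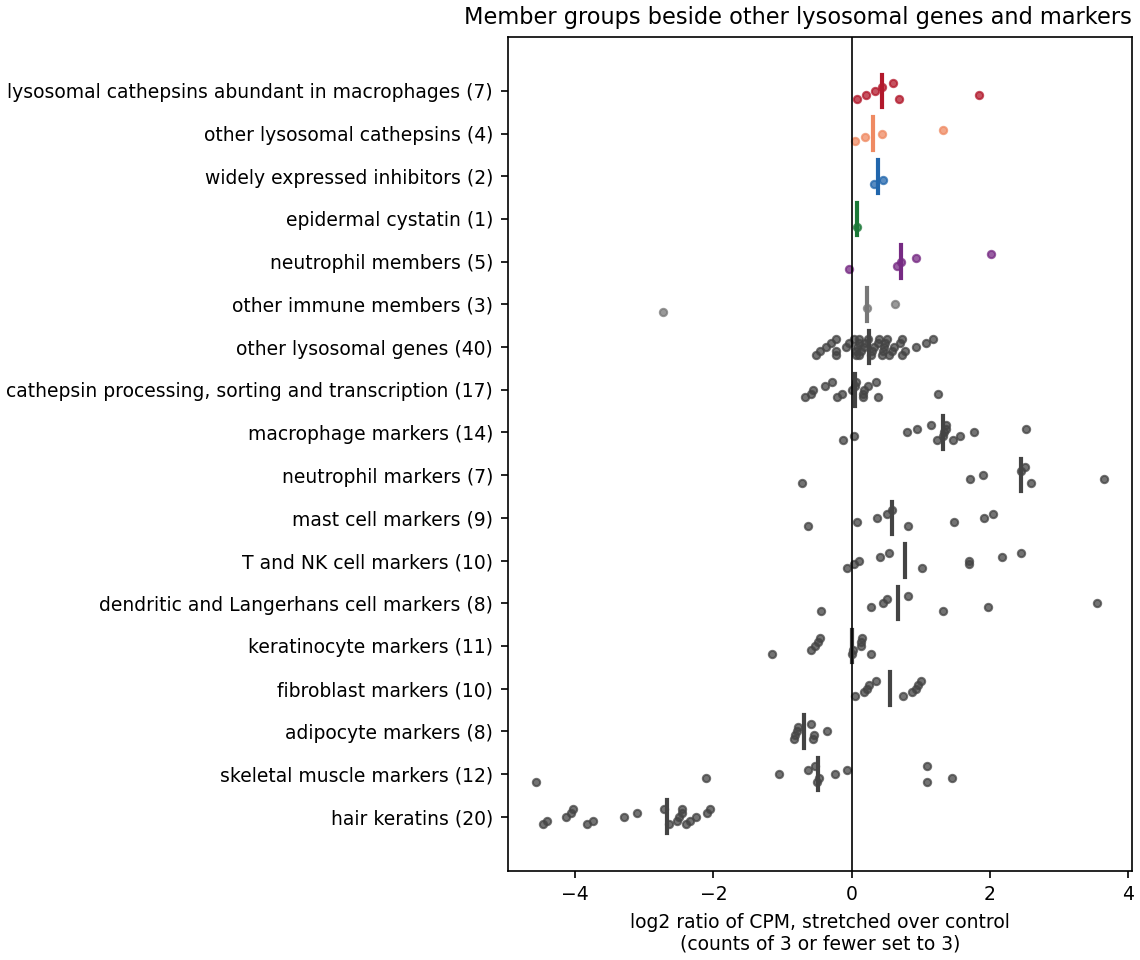
Log2 ratio of CPM, stretched over control, for the genes of each member group, context list and marker list. Each point is a measured gene, counts of 3 or fewer are set to 3, and the vertical mark gives the median of the list, with its number of genes in parentheses. The macrophage markers (median 1.32) have their median to the right of those of the member groups, and the hair keratins (-2.68) to the left.

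Set side by side, the groups of members differed in their medians. The macrophage-rich lysosomal cathepsins exceeded Cst6 by 0.35 and lay below the neutrophil members by 0.28 on the log2 scale, and Cst6 lay below the neutrophil members by 0.63. With 1 to 7 genes in a group and 1 library per condition, these differences describe the libraries and were not tested. The neutrophil median includes Stfa2l1, measured only through the stretched library. The gap between the lysosomal and neutrophil medians narrowed to 0.43 against 0.56 with 1 CPM added to both values, and to 0.64 against 0.72 without members that share 10% or more of their sequence with other genes, where the distance from Cst6 (0.09) widened.

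The make-up of the family by level shifted towards Ctsk and Ctss. Of the summed FPKM of all cathepsins, Ctsd held 42.0% in the control and 31.8% in the stretched library, and Ctsb 18.1% and 16.5%. Ctsk held 8.64% and 15.6%, and Ctss 4.24% and 10.9%. Ctse held 1.48% and 0.161%. Among cystatins and stefins the shares were steadier: Cst3 held 53.9% and 53.2%, Cstb 22.1% and 23.9%, and Cst6 17.8% and 14.9%. Ctsd remained first by FPKM in both libraries, although 31.2% of its 76-base stretches were also found in the transcript Gm49369 and 24.6% of those of Ctsl in other genes, so their levels are uncertain.

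**Figure D4:**
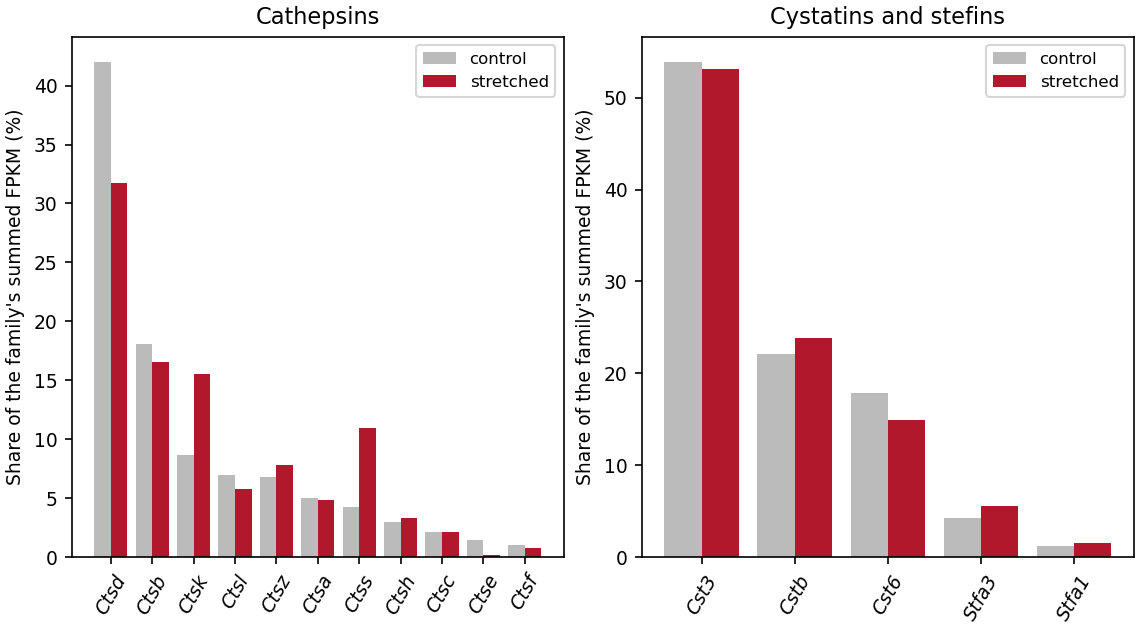
Share of the summed FPKM of cathepsins, and of cystatins and stefins, in percent, with a bar for the control (grey) and the stretched library (red) of each member that held more than 1% in either. The bars of Ctsk (8.64% and 15.6%) and Ctss (4.24% and 10.9%) are taller and that of Ctsd (42.0% and 31.8%) shorter in the stretched library, while Cst3 has nearly the same share in both.

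The summed level of the 10 cysteine cathepsins went from 429 to 734 FPKM, and that of the 14 cystatins and stefins from 503 to 638 FPKM. The ratio of the enzymes to the inhibitors was 0.852 in the control and 1.15 in the stretched library, so with these exon lengths it passed from below 1 to above 1. With the longest transcript as length it was 0.815 and 1.06. Other lengths were not tried, and the side of 1 depends on the lengths used. The side of 1 also rests on each of the 3 most abundant inhibitors. Without Cst3 the ratio was 1.85 and 2.46, without Cst6 1.04 and 1.35, and without Cstb 1.09 and 1.51, above 1 in both libraries and higher in the stretched library each time. Leaving out single enzymes was not tried. Ctsb, Ctsk and Ctss held 192, 181 and 127 FPKM of the enzyme sum in the stretched library, so the side of 1 can rest on them too. The ratio compares RNA levels per exon length and not amounts of active enzyme.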

How the data were processed

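RNA of whole-layer mouse back skin was sequenced from 1 non-stretched and 1 stretched library at day 5. Per the methods, reads were single-end and 76 bases long, and processing comprised quality filtering, alignment to mm10 with TopHat2 and FPKM values that were not used here. The authors deposited raw counts per gene symbol, not normalized, for 24421 genes. The counting program, the annotation it used and how it handled strand and multi-gene reads are not given in the sources used here.

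From the deposited counts, CPM used the summed counts (14152379 and 11648655), and FPKM also the union of exons in GENCODE M21, matched by name for 23384 genes and by synonym for 657, with 380 left without a length. Ratios are of CPM. Counts of 3 or fewer were set to 3 in medians, and genes with 1 to 3 counts are printed with the ratio of the counts as they stand. Intervals (exact, 95%, Clopper-Pearson) were taken on the stretched library's share of a gene's counts. Calls followed the methods, an EV limit of 10 and folds of 2 and 0.5, with 1 added to FPKM, a value the methods do not give. No test across replicates was possible.

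All members were named, and beyond them Lgmn, the genes at either end of context and marker lists and the Csta-like genes. Tgm1, Tgm3, Grn, the neighbours of Ctsk, the hair keratins and the other markers named singly were picked after their values were seen. The members and lists were chosen with earlier results of these data known. Shared 76-base stretches were exact matches on either strand to GENCODE M21 transcripts. Alternatives were edgeR's TMM (version 4.0.16), DESeq2's median of ratios (version 1.42.0), upper quartile scaling, totals without the 50 genes with most counts, other pseudocounts and EV limits, and a minimum of 20 counts. Python 3.11.15, numpy 2.4.6, pandas 2.3.3, scipy 1.17.1, matplotlib 3.10.9 and R 4.3.3 were used.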

Additional observations from a re-analysis of the deposited data

How the results depend on the processing

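No paired analysis was possible because each condition has 1 library, and for the same reason no library could be left out. No called value reversed. TMM, median of ratios, upper quartile scaling and totals without the 50 genes with most counts raised every log2 ratio by 0.10, 0.11, 0.10 and 0.06. The median of the macrophage-rich lysosomal cathepsins became 0.54 with TMM, 0.55 with median of ratios and 0.64 without Ctsb, Ctsd and Ctsl, which share 10% or more of their sequence in 76-base stretches. That of the widely expressed inhibitors became 0.49 with TMM, 0.50 with median of ratios and 0.49 with upper quartile scaling. Cst6 became 0.19, 0.20 and 0.19 with these, and 0.15 with totals without the top genes. With an EV above 100 the count of members called lower was 0, since Ctse has an EV of 38.4. The count called higher was 2 except for 3 with no EV filter, which added Stfa2l1. With each scaling 16 members had an interval above 0, Ctso joining, and with at least 20 counts 14. Over all genes, the median of log2 ratios was -0.12 before scaling, and 3924 intervals lay above 0 and 3914 below with TMM, against 2945 and 5452. All-gene calls were 330 higher and 215 lower with TMM, 137 and 130 with an EV above 100, and 454 and 442 with CPM in place of FPKM. With the longest transcript as gene length, the ratio of cysteine cathepsins to inhibitors was 0.815 in the control and 1.06 in the stretched library. With the union of exons but without Cst3 it was 1.85 and 2.46. Leaving out Cst6 (1.04 and 1.35) or Cstb (1.09 and 1.51) was added after seeing the data. Of 110 recomputed values of the 22 single members, 31 in 9 members left the counting interval of the main value. The sparse members, Ctsg, Stfa2, Stfa2l1, Cst7 and Ctsw, are limited by depth, and the log2 ratio of Ctsg, which was not called, turned from -0.04 to 0.06 under TMM and upper quartile scaling, 0.07 under median of ratios and 0.02 with totals without the top genes.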
